A study of Mus musculus with 12 samples.

Results

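The genes described here are 38 genes of DNA replication and S phase, the part of the cell cycle in which the genome is copied. They were listed by name for their roles: licensing of replication origins, activation of the replicative helicase, the sliding clamp and its loader, DNA polymerases, flap processing and ligation, nucleotide synthesis, control of the G1 to S transition and chromatin assembly behind the fork. A gene was measured by the probe sets that carried its symbol and no other symbol, and by the one of highest mean where there was more than 1. Of the 38 genes, 36 were measured, of 22180 genes with such a probe set. Rfc4, a clamp loader subunit, and Ccne2, a G1 to S cyclin, had no probe set of exactly 1 symbol and were not analysed here. All 36 passed the filter on dim genes, which kept those with a mean over the arrays of at least 5.72 log2 units, the 30th percentile among all probe sets, and 17467 genes were tested. Orc1 lay closest to the filter, with a mean of 6.03 log2 units, and Gmnn followed at 6.52.

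RNA came from primary neuronal cultures of ICR (CD-1) mouse embryo brain, grown in Neurobasal medium with the serum-free supplement B27, and was measured on Affymetrix whole-transcript arrays. Drugs were added at day in vitro 3 and the cultures were harvested after 48 h, at day in vitro 5. The groups were amitriptyline (5 µM, a tricyclic antidepressant), citalopram (10 µM, a serotonin reuptake inhibitor), duloxetine (0.1 µM, a serotonin and noradrenaline reuptake inhibitor), imipramine (5 µM, a tricyclic), mirtazapine (50 µM, a tetracyclic) and control, with 2 arrays each. The treatment of the control cultures is not stated in the labels used here, and neither is whether the 2 arrays of a group stand for separate cultures or embryos, so a p-value here reflects the spread between samples that may be technical. All 5 comparisons with control share the same 2 control arrays. The doses differ between drugs, except for amitriptyline and imipramine.

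Before S phase, the origin recognition complex, Cdc6 and Cdt1 load the Mcm2 to Mcm7 helicase onto DNA. Cdc45 and the GINS complex then join it to form the active helicase, and polymerases copy both strands behind it, held on DNA by the Pcna clamp. Many of these genes are transcribed at the G1 to S transition by E2F factors, once cyclin-dependent kinases have inactivated the Rb proteins. Neurons have left the cell cycle, while progenitor cells, glial cells and fibroblasts in a brain culture can still divide. In RNA of a whole culture, fewer cells of a type and less RNA per cell cannot be told apart.

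Array signals carry no counts or depth, and precision is limited by having 2 arrays a group: for the median replication gene, the 95% interval of a difference from control extended 0.29 log2 units each way. On all arrays the neuronal genes Tubb3, Map2, Rbfox3 and Snap25 were well above the filter, with Tubb3 between 12.33 and 12.55 log2 units. Duloxetine replicate 2 and mirtazapine replicate 2 stood apart from the other arrays. On the first principal component, which held 52.5% of the variance, they lay at 32.6 and 36.4, against at most 3.9 for the other 10 arrays. The slope of their values on the mean of the other arrays was 0.923 and 0.908, against 0.997 to 1.029 for the others. Counts of called genes and medians over the replication genes are given both ways where they move without these 2 arrays. Differences of single genes are from the fit on all 12 arrays unless stated, and many under mirtazapine and duloxetine move without the 2. Under mirtazapine, Mcm4 differed by -0.89 with them and by -0.64 without, and Rrm1 by -0.82 and -0.54. Mcm6 and Prim1 differed by -0.55 and -0.46 without them. The difference of Rrm2 was deeper without them, at -0.73.

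RefSeq promoter windows of 300 bases (250 before the start of the gene and 50 after it, build GRCm38.p6) were at hand for 31 of the 38 genes. E2F motifs, spelled TTTCCCGC, TTTCGCGC, TTTGCCGC and TTTGGCGC and searched on both strands, where overlapping matches count separately, were found for 13 of the 31 genes (41.9%), against 704 of the 27025 genes with a window (2.6%), where a gene with more than 1 window counts once. Since known E2F targets were among the reasons for listing these genes, the share describes the list and is no finding about it. The 13 genes were Mcm3, Mcm5, Mcm6, Mcm7, Cdc6, Cdt1, Orc1, Pclaf, Rfc3, Pola1, Pole2, Lig1 and Dtl. The CCAAT box was found in 61.3% of the listed genes and in 41.1% of all genes with a window, and the cell cycle homology region motifs TTTGAA and TTTCGAA in 12.9% and 20.9%.

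The windows shown here are those of the genes that passed the test in some comparison and also held an E2F motif. They are written 5′ to 3′ on the strand of the gene, with the motif in capitals: Mcm5 at chr8:75109259-75109558 on the plus strand, Pole2 at chr12:69228141-69228440 on the minus strand, Dtl at chr1:191575495-191575794 on the minus strand and Pclaf at chr9:65890073-65890372 on the plus strand.
Mcm5: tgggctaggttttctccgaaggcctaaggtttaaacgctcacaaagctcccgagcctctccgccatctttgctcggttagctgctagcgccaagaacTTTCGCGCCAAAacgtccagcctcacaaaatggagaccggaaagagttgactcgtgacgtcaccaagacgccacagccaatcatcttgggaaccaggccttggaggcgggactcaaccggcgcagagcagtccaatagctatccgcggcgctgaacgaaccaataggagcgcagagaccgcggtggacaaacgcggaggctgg
Pole2: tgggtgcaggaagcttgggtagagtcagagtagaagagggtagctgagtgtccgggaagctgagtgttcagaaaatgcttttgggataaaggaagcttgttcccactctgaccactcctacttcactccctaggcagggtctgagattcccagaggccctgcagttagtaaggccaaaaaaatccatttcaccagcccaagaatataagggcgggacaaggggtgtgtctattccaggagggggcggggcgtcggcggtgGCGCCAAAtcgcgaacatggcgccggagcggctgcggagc
Dtl: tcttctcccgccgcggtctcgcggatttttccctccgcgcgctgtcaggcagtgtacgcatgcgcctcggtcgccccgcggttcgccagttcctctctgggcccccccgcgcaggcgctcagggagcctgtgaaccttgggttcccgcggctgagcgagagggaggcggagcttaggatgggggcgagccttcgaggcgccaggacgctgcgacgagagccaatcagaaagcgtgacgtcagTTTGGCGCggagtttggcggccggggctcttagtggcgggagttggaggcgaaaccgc
Pclaf: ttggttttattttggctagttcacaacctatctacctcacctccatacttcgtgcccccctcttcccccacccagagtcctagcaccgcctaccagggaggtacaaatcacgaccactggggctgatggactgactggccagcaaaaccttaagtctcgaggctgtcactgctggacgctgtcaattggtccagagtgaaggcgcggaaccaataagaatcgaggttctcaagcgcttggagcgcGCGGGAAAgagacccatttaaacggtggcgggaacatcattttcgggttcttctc
In Mcm5 a TTTCGCGC and a TTTGGCGC on the opposite strand overlap, and the first begins at position -153 relative to the start of the gene. In Dtl the motif begins 8 bases before the start and in Pclaf 5 bases before it, while in Pole2 it lies 10 bases after it. Rfc5, which also passed the test, has a window with none of these motifs, and Gins1 and Pole have no window in the table. A match is a description of letters, not of a bound site.

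Replication and S phase genes were lower than in control cultures on most drug arrays, and the clearest differences were in mirtazapine cultures. The median difference over the 36 genes was -0.29 log2 units in amitriptyline cultures, -0.22 in citalopram, -0.19 in duloxetine, -0.18 in imipramine and -0.35 in mirtazapine cultures. The medians over all 17467 genes lay between -0.03 and -0.005 for the same comparisons. The direction was shared by most of the list: 33 of the 36 differences were below 0 under amitriptyline, 34 under citalopram, 29 under duloxetine, 32 under imipramine and 33 under mirtazapine. Among all genes tested the share below 0 was 56.7%, 50.8%, 52.3%, 52.1% and 55.1% in the same order of drugs.

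**Figure D1:**
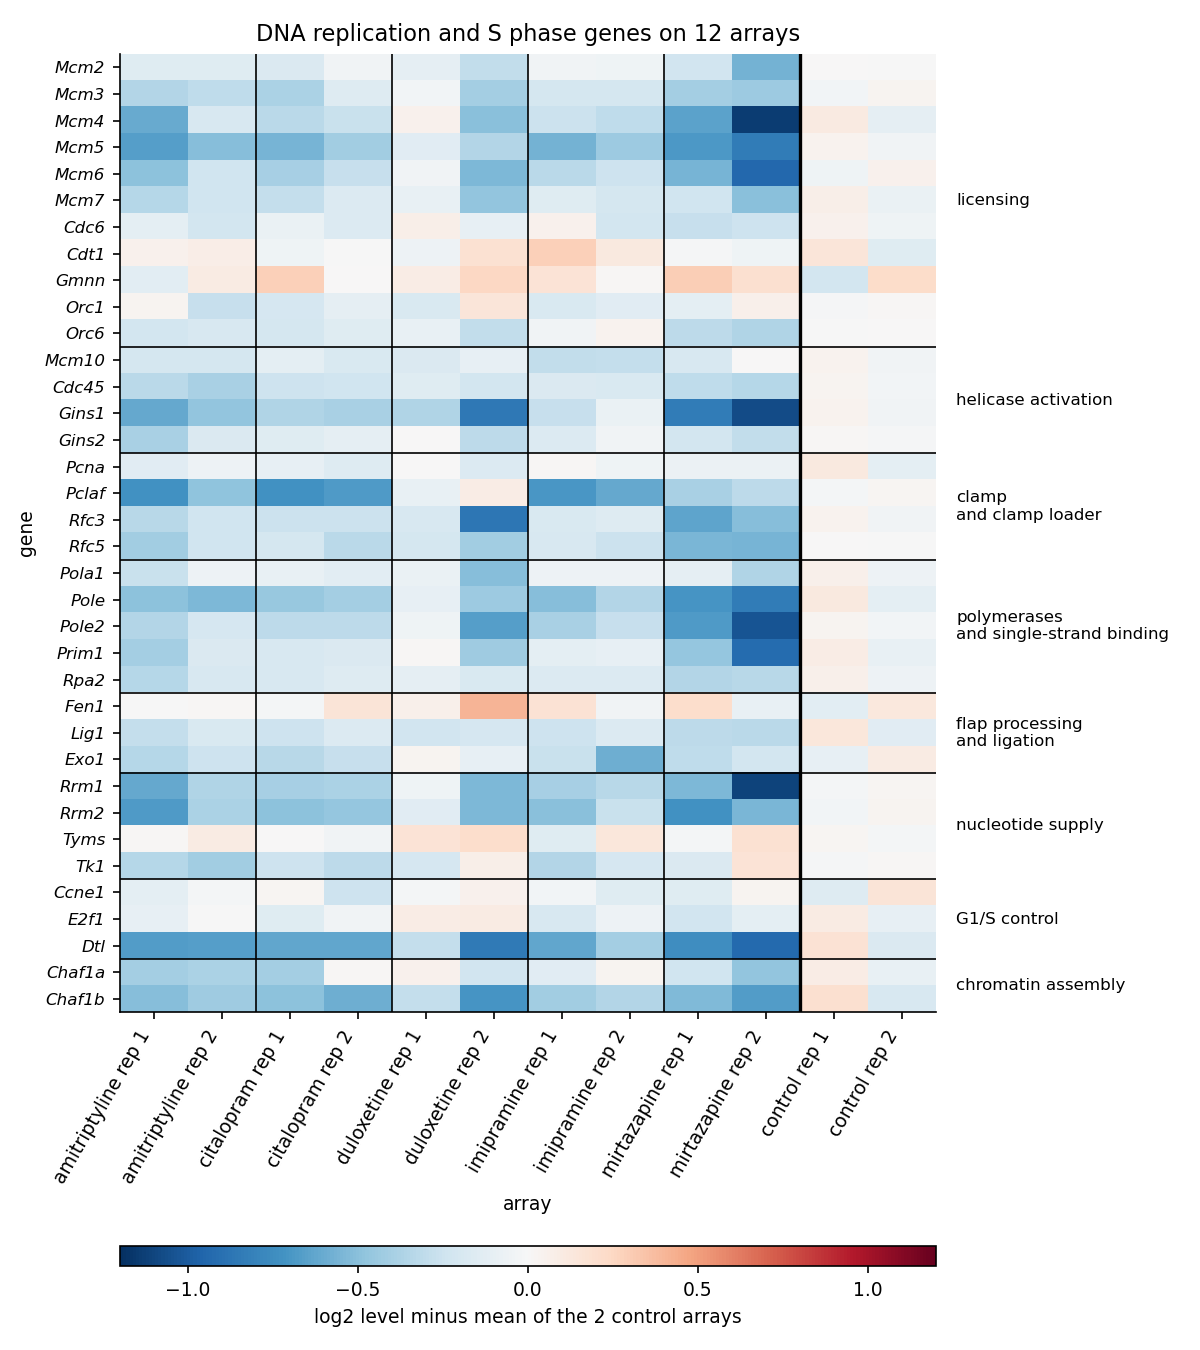
Level of each of the 36 genes (rows, grouped by role) on each of the 12 arrays (columns, by group and replicate), as the log2 difference from the mean of the 2 control arrays. Most rows are lower on the drug arrays, deepest on the mirtazapine arrays, while Cdt1, Gmnn, Pcna, Fen1, Tyms and Ccne1 stay near 0 or vary in sign.

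On single arrays, the mean of the 36 genes minus their control mean was -0.33 and -0.24 on the amitriptyline arrays, -0.26 and -0.23 on the citalopram arrays, -0.08 and -0.27 on the duloxetine arrays, -0.21 and -0.19 on the imipramine arrays and -0.35 and -0.43 on the mirtazapine arrays, against 0.03 and -0.03 on the control arrays. The 10 drug arrays were thus all below both control arrays, and duloxetine replicate 1 was the closest to them. The SD between replicates of this mean, pooled over the groups, was 0.07. The 2 duloxetine arrays differed most. Their median gap over the 36 genes, replicate 2 minus replicate 1, was -0.21 log2 units, against -0.07 to 0.09 in the other groups. On duloxetine replicate 2, 25 of the 36 genes were lower (51.8% of all genes), a count near the 24 in control and 23 in mirtazapine cultures. That array is one of those that stood apart.

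In 14 of the 36 genes both arrays of each of the 5 drugs lay below both control arrays, against 3.67% of all genes tested. These were Mcm2, Mcm5, Mcm7, Cdc45, Gins1, Rfc3, Rfc5, Pole2, Rpa2, Lig1, Rrm1, Rrm2, Dtl and Chaf1b. In a further 10 genes, against 6.89% of all genes, this held for 4 of the drugs: Mcm3, Mcm4, Mcm6, Orc6, Mcm10, Gins2, Pclaf, Pole, Prim1 and Exo1. At the other end, Cdt1, Gmnn, Pcna, Fen1, Tyms and Ccne1 had no drug with both arrays below both controls, as had 49.5% of all genes. Counted by drug, 27 genes were separated in this way under amitriptyline (75% of the 36, against 24.2% of all genes), 28 under citalopram (77.8%, against 22.1%), 17 under duloxetine (47.2%, against 18.3%), 25 under imipramine (69.4%, against 19.1%) and 27 under mirtazapine (75%, against 30.6%). A single gene lay above both controls on both arrays of a drug, Tyms under duloxetine, where 15.5% of all genes did.

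Among the licensing genes, the 6 subunits of the Mcm helicase had differences below 0 under every drug, whereas the factors that load it did not all have them. Mcm5, a helicase subunit, measured 8.10 and 8.25 log2 units in amitriptyline cultures, 8.20 and 8.34 in citalopram, 8.62 and 8.41 in duloxetine, 8.19 and 8.32 in imipramine and 8.07 and 7.92 in mirtazapine cultures, against 8.80 and 8.72 in control cultures. No drug array reached a control array, the duloxetine arrays came closest, and the mirtazapine arrays were the lowest. Mcm5 fell under mirtazapine by 0.77 log2 units (SE 0.111, a level 1.70-fold lower, adjusted p = 0.0182). Its difference under the other drugs was -0.59 (amitriptyline), -0.49 (citalopram), -0.25 (duloxetine) and -0.51 (imipramine), with adjusted p between 0.106 and 0.495. For the other subunits under mirtazapine the differences were -0.39 (Mcm2), -0.42 (Mcm3), -0.89 (Mcm4), -0.75 (Mcm6) and -0.37 (Mcm7), and the lowest adjusted p of these 5 was 0.0651.

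The loading factors varied more. Orc6, a subunit of the origin recognition complex, had a difference of -0.34 under mirtazapine and 0.00 under imipramine, with adjusted p of 0.098 in mirtazapine cultures. Cdc6, which recruits the helicase to origins, differed by -0.26 under mirtazapine and by -0.01 under duloxetine. Cdt1, its partner in loading, lay between -0.03 and 0.20 under the 5 drugs, and Gmnn, the inhibitor of Cdt1, between -0.02 and 0.25. For Orc1, the subunit closest to the filter, the differences ran between -0.16 and -0.02. The drug and control arrays overlapped under every drug for Cdt1 and Gmnn. Of the 11 licensing genes, Mcm5 under mirtazapine was the only one called in a comparison with control.

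The 4 genes of helicase activation, Mcm10, Cdc45, Gins1 and Gins2, were below 0 under each of the 5 drugs. Gins1, a subunit of the GINS complex, measured 6.39 and 6.53 log2 units in amitriptyline cultures, 6.64 and 6.61 in citalopram, 6.64 and 6.14 in duloxetine, 6.72 and 6.92 in imipramine and 6.16 and 5.93 in mirtazapine cultures, against 7.04 and 6.96 in control cultures. No drug array reached a control array. The mirtazapine arrays and duloxetine replicate 2 were the lowest, and imipramine replicate 2 came closest to the controls. Gins1 fell under mirtazapine by 0.95 log2 units (SE 0.156, 1.94-fold lower, adjusted p = 0.0223), the deepest difference of the 36 genes in any comparison. Cdc45, which joins the helicase with GINS, had small but tight differences of -0.36, -0.24, -0.18, -0.18 and -0.32 in the order of the drugs (SE 0.080). Gins2 and Mcm10, a factor needed for helicase activation, differed by -0.26 and -0.10 under mirtazapine.

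Among the genes of the sliding clamp and its loader, Pcna, the clamp itself, was near its control level, while its partner Pclaf was lower under 4 of the drugs. Pcna measured between 10.46 and 10.64 log2 units on the 10 drug arrays, against 10.74 and 10.51 on the control arrays, and its differences lay between -0.12 and -0.02. Pclaf, a protein that binds Pcna, measured 6.31 and 6.56 log2 units in amitriptyline cultures, 6.31 and 6.36 in citalopram, 6.95 and 7.13 in duloxetine, 6.34 and 6.43 in imipramine and 6.65 and 6.73 in mirtazapine cultures, against 7.02 and 7.06 in control cultures. The duloxetine arrays lay on either side of the control arrays, and the arrays of the other 4 drugs were all below both groups. The lowest value, 6.31, was that of amitriptyline replicate 1 and citalopram replicate 1. Its difference from control was -0.60, -0.71, 0.00, -0.66 and -0.35 in the order of the drugs (SE 0.106), with adjusted p of 0.0932, 0.183, 1, 0.0907 and 0.121.

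Rfc5, a subunit of the clamp loader, measured 8.01 and 8.19 log2 units in amitriptyline cultures, 8.21 and 8.10 in citalopram, 8.21 and 8.01 in duloxetine, 8.23 and 8.17 in imipramine and 7.88 and 7.87 in mirtazapine cultures, against 8.43 and 8.42 in control cultures. All drug arrays were below both control arrays, and the mirtazapine arrays were below all others. Rfc5 fell under mirtazapine by 0.55 log2 units (SE 0.100, 1.46-fold lower, adjusted p = 0.0293). Rfc3, another subunit, differed by -0.57 under mirtazapine (adjusted p = 0.122) and by -0.53 under duloxetine. Its duloxetine arrays were far apart, at 7.50 and 6.82 log2 units.

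The polymerase genes and Rpa2 were below 0 under each drug. Pole, the catalytic subunit of DNA polymerase epsilon, the leading strand polymerase, measured 7.16 and 7.11 log2 units in amitriptyline cultures, 7.20 and 7.24 in citalopram, 7.55 and 7.21 in duloxetine, 7.14 and 7.30 in imipramine and 6.94 and 6.81 in mirtazapine cultures, against 7.77 and 7.53 in control cultures. Duloxetine replicate 1 overlapped the control arrays, and the mirtazapine arrays were the lowest. Pole fell under mirtazapine by 0.77 log2 units (SE 0.129, 1.71-fold lower, adjusted p = 0.0228). A second probe set of Pole, whose mean of 5.65 log2 units is below the filter, had differences of 0.22, 0.18, 0.21, -0.05 and 0.12 in the order of the drugs. With the mean of both probe sets in its place, Pole differed by -0.33 under mirtazapine and was not called.

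Pole2, the second subunit of polymerase epsilon, measured 7.17 and 7.32 log2 units in amitriptyline cultures, 7.21 and 7.21 in citalopram, 7.47 and 6.86 in duloxetine, 7.14 and 7.25 in imipramine and 6.85 and 6.49 in mirtazapine cultures, against 7.56 and 7.49 in control cultures. No drug array reached the lower control array, although duloxetine replicate 1 came just short of it. Pole2 fell under mirtazapine by 0.85 log2 units (SE 0.182, 1.81-fold lower, adjusted p = 0.0498). Prim1, the primase that starts each new strand, differed by -0.69 under mirtazapine (adjusted p = 0.0796), Rpa2, a subunit of the protein that coats single-stranded DNA, by -0.34 and Pola1, the polymerase that extends the primers, by -0.24.

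**Figure D2:**
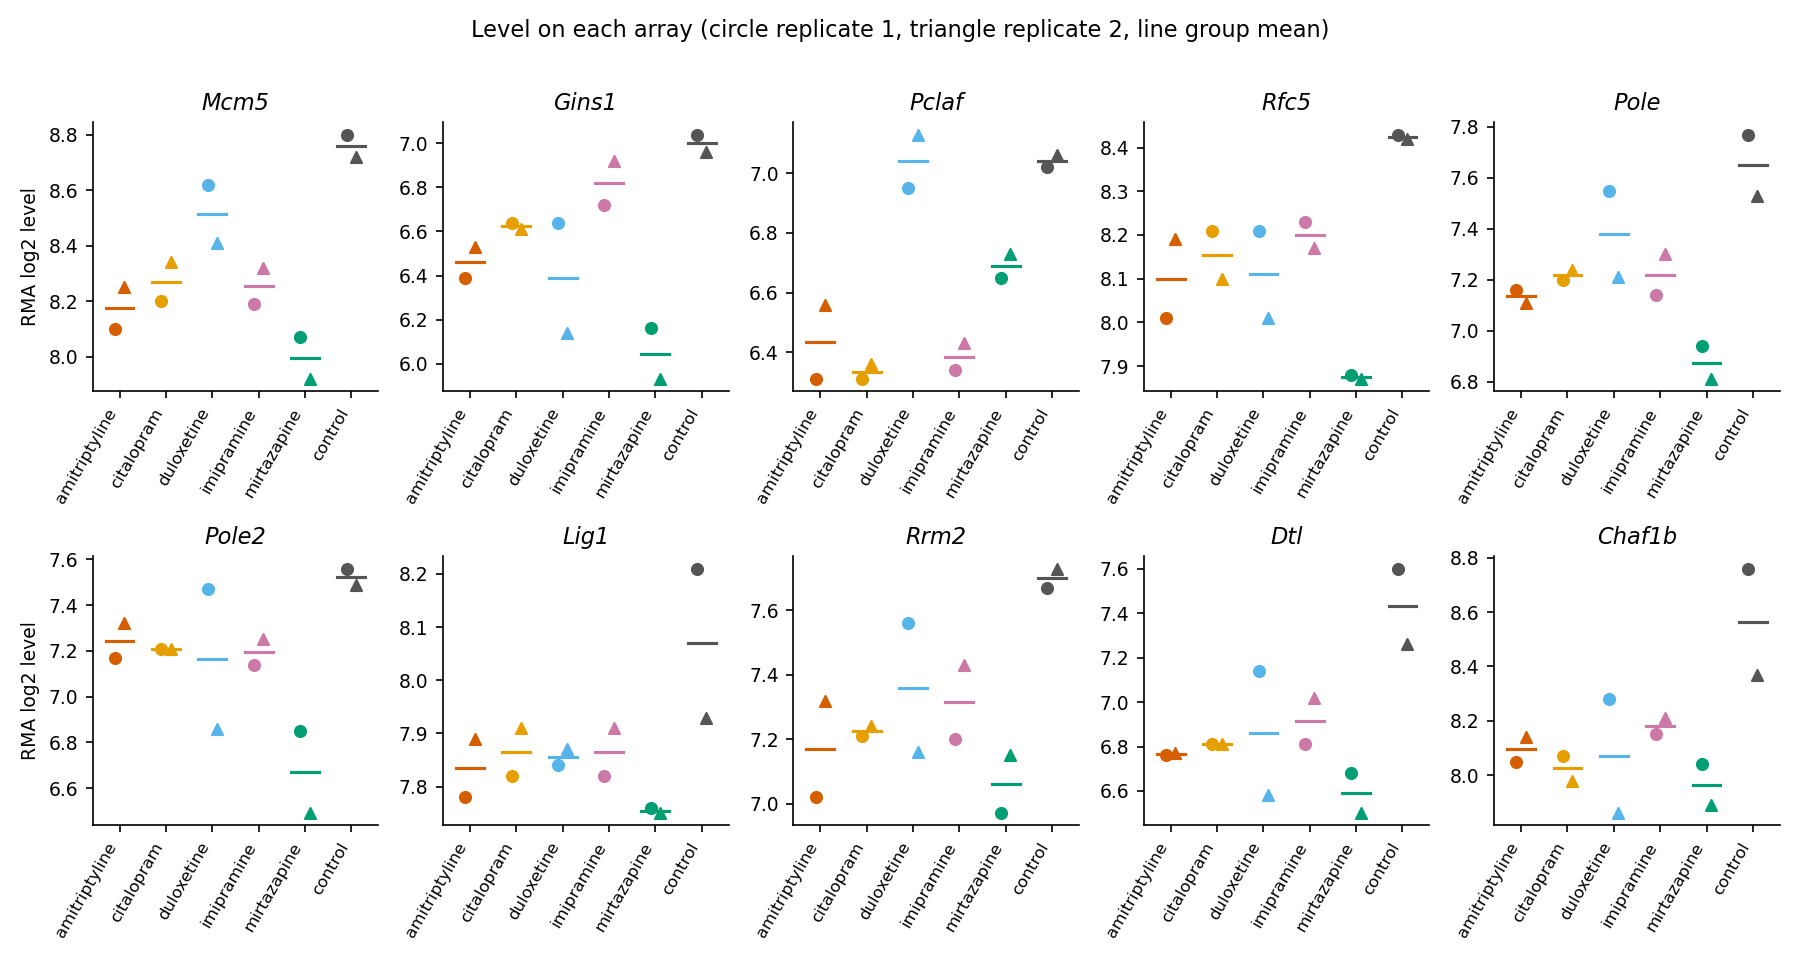
Log2 level of 10 genes (1 panel each, vertical axis in log2 units) in the 6 groups, with the 5 drugs to the left of control. Circles are replicate 1, triangles replicate 2 and lines group means. The group mean is lowest under mirtazapine in each panel except that of Pclaf, which is at its control level under duloxetine.

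Of the genes that join the fragments of the lagging strand, Lig1, DNA ligase 1, had differences below 0 under each drug, and Fen1, the flap endonuclease, had them under none. Lig1 measured 7.78 and 7.89 log2 units in amitriptyline cultures, 7.82 and 7.91 in citalopram, 7.84 and 7.87 in duloxetine, 7.82 and 7.91 in imipramine and 7.76 and 7.75 in mirtazapine cultures, against 8.21 and 7.93 in control cultures. The drug arrays lay close together and below both controls, and the gap between the control arrays was wider than that between any drug array and control replicate 2. The difference of Lig1 under mirtazapine was -0.32 (SE 0.105, adjusted p = 0.143). Fen1 differed by 0.005 to 0.24, and a second Fen1 probe set that passed the filter had differences of -0.20, -0.03, 0.21, -0.07 and -0.38 in the order of the drugs. Exo1, an exonuclease of replication and mismatch repair, differed by -0.43 under imipramine and by -0.03 under duloxetine.

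In nucleotide supply, the 2 subunits of ribonucleotide reductase, which makes deoxyribonucleotides, had the largest differences. Rrm2, the small subunit, measured 7.02 and 7.32 log2 units in amitriptyline cultures, 7.21 and 7.24 in citalopram, 7.56 and 7.16 in duloxetine, 7.20 and 7.43 in imipramine and 6.97 and 7.15 in mirtazapine cultures, against 7.67 and 7.73 in control cultures. No drug array reached a control array, and duloxetine replicate 1 was the nearest. The difference of Rrm2 under mirtazapine was -0.64 (SE 0.151, adjusted p = 0.0673), and that of Rrm1, the large subunit, was -0.82 (SE 0.194, adjusted p = 0.0673). A second probe set of Rrm2, with a mean of 3.71 log2 units, below the filter, had differences of 0.02, -0.14, 0.11, -0.01 and -0.01 in the order of the drugs. Tyms, thymidylate synthase, lay between -0.02 and 0.19 under the 5 drugs. Tk1, thymidine kinase, measured 7.09 and 7.43 log2 units on the mirtazapine arrays, which lie on either side of the control values of 7.25 and 7.28, and it differed by -0.38 under amitriptyline.

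In G1 to S control, Dtl stood apart from Ccne1 and E2f1. Dtl, the adaptor of a ubiquitin ligase that removes Cdt1 during S phase, measured 6.76 and 6.77 log2 units in amitriptyline cultures, 6.81 and 6.81 in citalopram, 7.14 and 6.58 in duloxetine, 6.81 and 7.02 in imipramine and 6.68 and 6.50 in mirtazapine cultures, against 7.60 and 7.26 in control cultures. No drug array reached the lower control array, and the 2 controls were themselves apart. Dtl fell under mirtazapine by 0.84 log2 units (SE 0.177, 1.79-fold lower, adjusted p = 0.0485). E2f1, an activating E2F factor, lay between -0.17 and 0.09 under the 5 drugs, and Ccne1, cyclin E1, between -0.11 and 0.02.

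The 2 chromatin assembly genes encode subunits of the factor that deposits histones behind the fork. Chaf1b measured 8.05 and 8.14 log2 units in amitriptyline cultures, 8.07 and 7.98 in citalopram, 8.28 and 7.86 in duloxetine, 8.15 and 8.21 in imipramine and 8.04 and 7.89 in mirtazapine cultures, against 8.76 and 8.37 in control cultures. All drug arrays were below both control arrays, which were themselves apart. The differences of Chaf1b were -0.47, -0.54, -0.49, -0.38 and -0.60 in the order of the drugs (SE 0.156), with adjusted p of 0.0893 under mirtazapine. Chaf1a differed by -0.35 under mirtazapine and by -0.05 under imipramine.

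Taken by drug, mirtazapine at 50 µM gave the calls. Of the 36 genes, 6 were called, all lower: Mcm5, Gins1, Pole, Rfc5, Dtl and Pole2. Over all genes, 304 of 17467 were called in this comparison (1.74%), and the share called lower was 1.47%. Without adjustment, 23 of the 36 genes had p under 0.05, against 22.4% of all genes tested. When both arrays that stood apart were left out, 9 of the 36 were called, against 2.12% of all genes. These were Dtl, Gins1, Mcm5, Pole, Pole2, Rfc3, Rfc5, Rrm1 and Rrm2, and the median over the 36 was -0.31. The count depends on single arrays, and the share of all genes called moves with it. It was 0 without control replicate 1 (0% of all genes) or without mirtazapine replicate 2 (0.0458%), 1 without control replicate 2 (0.664%) or either citalopram array (0.378%), and 3 without either imipramine array (0.847%). It was 11 without mirtazapine replicate 1, where 8.3% of all genes were called, and 17 without either duloxetine array, where 7.6% were. With a fit on the 4 mirtazapine and control arrays alone, no gene of the 36 was called.

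**Figure D3:**
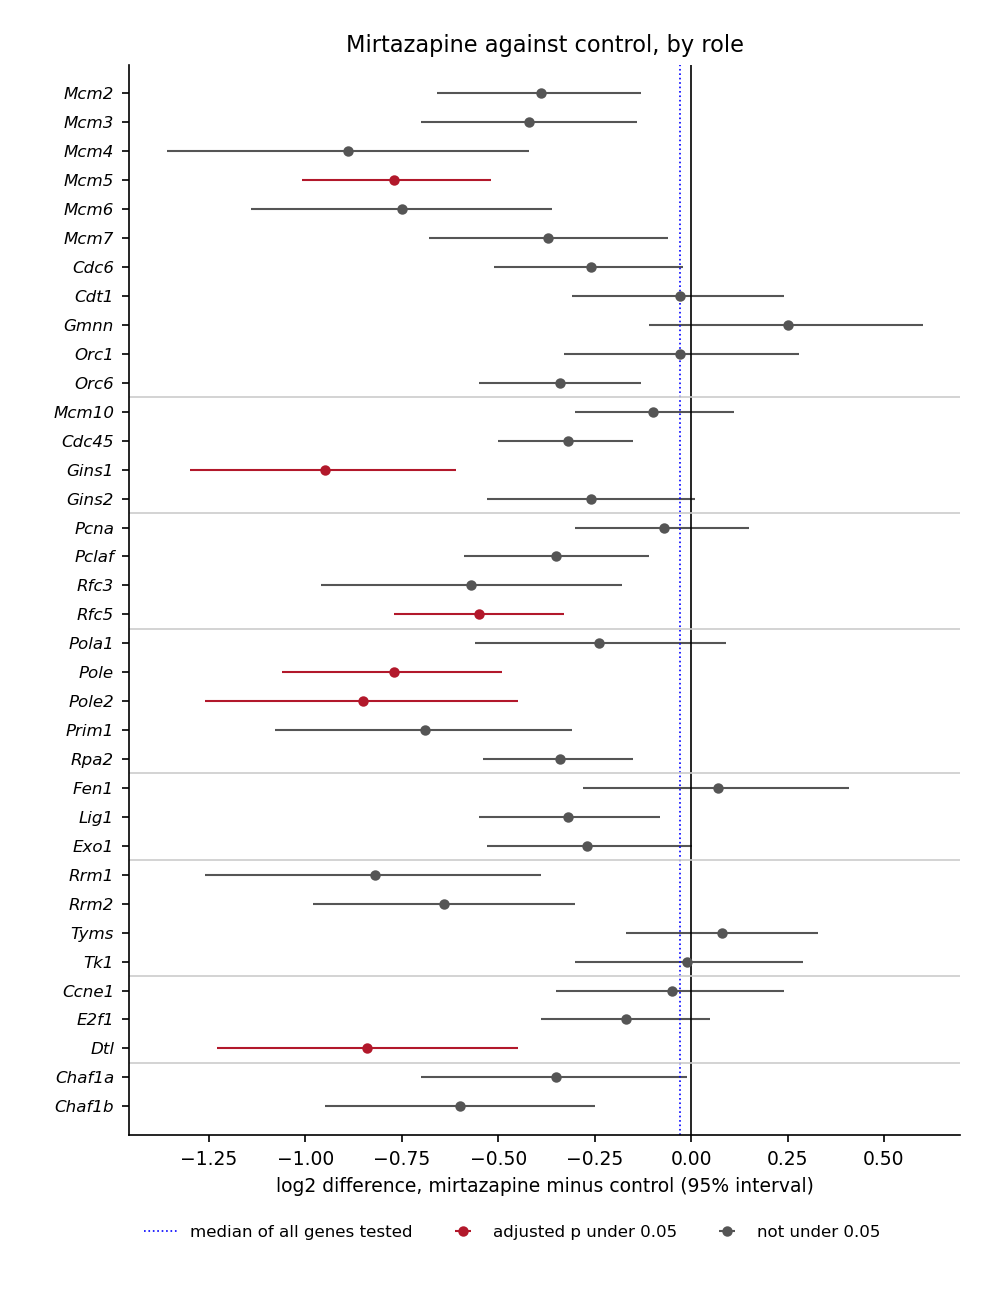
Difference between mirtazapine and control cultures for each of the 36 genes, grouped by role (horizontal axis, log2 units; bars are 95% intervals from the fit over 12 arrays). The lowest point is Gins1 at -0.95, and the intervals of Gmnn, Mcm10, Pcna, Tyms, Fen1, Ccne1, Cdt1, Orc1 and Tk1 are among those that include 0.

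Under amitriptyline at 5 µM, no gene of the 36 was called by limma (lowest adjusted p = 0.0932, for Pclaf), and 0% of all genes were called. Unadjusted, 19 of the 36 had p under 0.05, all of them lower, against 6.14% of all genes. Without the 2 arrays that stood apart, neither of which is an amitriptyline or control array, 7 of the 36 were called, with the same differences and a smaller estimate of the spread, against 1.31% of all genes. They were Mcm5, Cdc45, Gins1, Pclaf, Pole, Rrm1 and Dtl, with differences between -0.66 and -0.36 and adjusted p between 0.0305 and 0.0473. Without either duloxetine array alone, 1 gene was called, Pclaf, against 0.275% of all genes.

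Under imipramine at 5 µM, no gene of the 36 was called by limma, against 0.0286% of all genes, and 10 had an unadjusted p under 0.05, all lower, against 4.56% of all genes. The lowest adjusted p was again that of Pclaf (0.0907). Without the 2 arrays that stood apart, Pclaf was called with the same difference of -0.66 (adjusted p = 0.0335), against 0.481% of all genes, and it was also the 1 gene called without either duloxetine array alone (0.166% of all genes). Under citalopram at 10 µM, limma called none of the 36 and 0% of all genes, with or without those arrays. There 10 of the 36 had an unadjusted p under 0.05, all lower, against 4.44% of all genes, and the largest difference was that of Pclaf (-0.71).

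Under duloxetine at 0.1 µM, no gene of the 36 was called by limma, 0% of all genes were, and 7 of the 36 had an unadjusted p under 0.05, all lower, against 10% of all genes. The lowest adjusted p was 0.492, and the largest differences were those of Gins1 (-0.61), Dtl (-0.57) and Rfc3 (-0.53). In Fen1 and Tyms the differences were above 0, at 0.24 and 0.19. This comparison rests on duloxetine replicate 2: without the 2 arrays that stood apart the median over the 36 genes was -0.08 and 25 of the 36 were below 0. In that fit Gins1 differed by -0.36, Dtl by -0.29 and Rfc3 by -0.19. Without duloxetine replicate 1 the median was -0.29 and 9 of the 36 genes were called, where 11.7% of all genes were called as well.

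**Figure D4:**
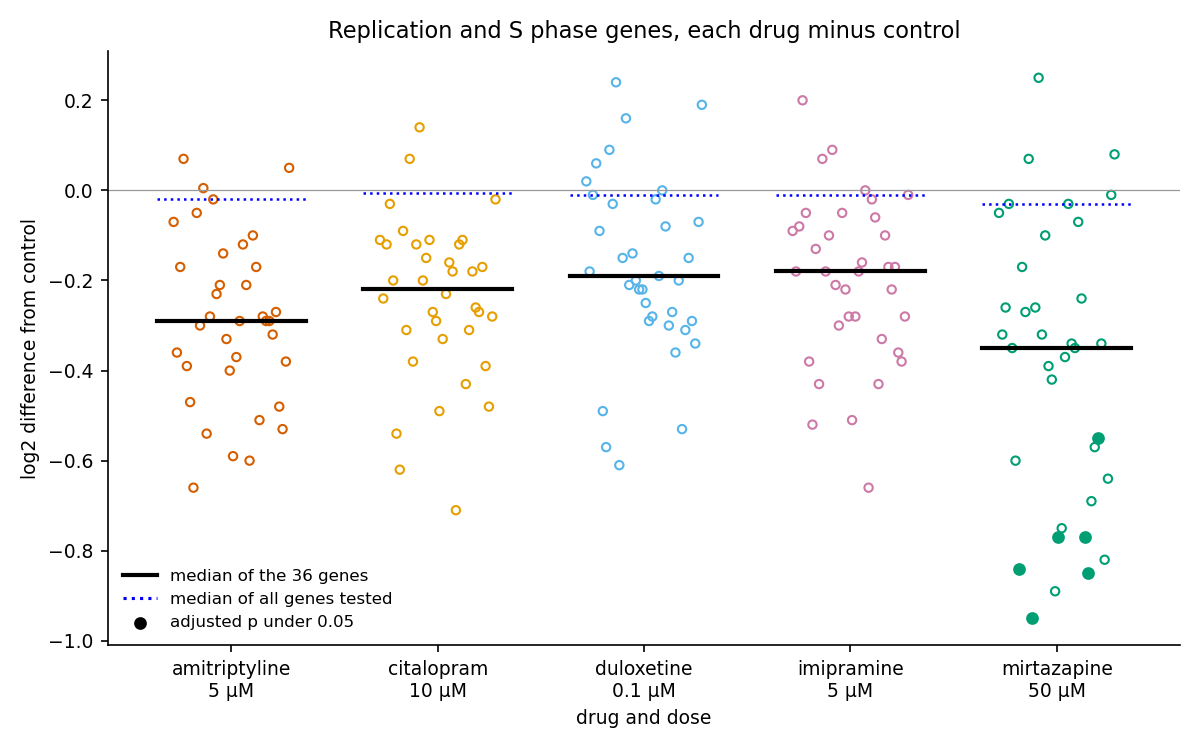
Differences from control of the 36 genes (points) for each drug, in the order amitriptyline, citalopram, duloxetine, imipramine and mirtazapine, with the dose under each name (vertical axis, log2 units). The points spread furthest below 0 under mirtazapine, whose median is -0.35, and each drug has a few points at or above 0.

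The mean of the 5 drugs was also compared with control. Of all genes tested, 54.6% were below 0, and the median over the 36 genes was -0.25 log2 units. None was called by limma (lowest adjusted p = 0.0581, for Mcm5), against 0.0515% of all genes (0.0229% called lower), and 21 had an unadjusted p under 0.05, against 8.93% of all genes. Leaving out both arrays that stood apart, the median over the 36 was -0.23, against -0.01 over all genes, and 32 were below 0. In that fit 6 of the 36 were called (Mcm5, Gins1, Pclaf, Rfc3, Pole and Dtl), against 1.18% of all genes. The count was 10 without duloxetine replicate 1 (1.39% of all genes) and 3 without duloxetine replicate 2 (0.412%). In a moderated F test over the 6 groups, limma called none of the 36 and 0.103% of all genes, and the lowest adjusted p was that of Pclaf (0.0572). That count was 7 without duloxetine replicate 1 (2% of all genes) and 2 without duloxetine replicate 2 (0.384%).

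Drugs were then compared with each other, without the control arrays. Amitriptyline and imipramine, both tricyclics given at 5 µM, are the pair with matched doses. The median difference of the 36 genes, amitriptyline minus imipramine, was -0.10 log2 units, 28 were below 0 (57.1% of all genes were), and none was called by limma (0% of all genes; 2 of the 36 and 1.21% of all genes had an unadjusted p under 0.05). The lowest unadjusted p-values were those of Gins1 (-0.36, 95% interval -0.71 to -0.01) and Orc6 (-0.21, -0.42 to -0.0024), and for Mcm5 the interval was -0.33 to 0.17. Differences of this size cannot be told from the spread with 2 arrays a group. In all 10 pairs of drugs, of which the other 9 differ in dose, limma called none of the 36, with the lowest adjusted p (0.0571) between duloxetine and imipramine. Over all 17467 genes, 83 were called between duloxetine and mirtazapine, 21 between duloxetine and imipramine, and 0 to 2 in each of the other pairs.

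The mean of the other 4 drugs was set against duloxetine, the drug given at the lowest concentration. Here 1 of the 36 genes was called, Pclaf, against 0.658% of all genes (0.275% called lower). Pclaf fell by 0.58 log2 units in the mean of the other 4 drugs relative to duloxetine (SE 0.084, 95% interval -0.77 to -0.39, adjusted p = 0.0212). The median of the 36 genes in this comparison was -0.09, with 29 below 0 (54.8% of all genes were), and it was -0.16 with 32 below 0 without the 2 arrays that stood apart. In that fit the difference of Pclaf was -0.50 with an adjusted p of 0.0721. It was likewise not called without duloxetine replicate 2, either citalopram array or imipramine replicate 1, and without duloxetine replicate 1 the count was 2 of the 36, where 9.18% of all genes were called.

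Genes that held an E2F motif in a RefSeq window and genes that did not were set side by side as a description. Under mirtazapine the median difference was -0.37 for the 13 genes with a motif and -0.34 for the 17 measured genes with a window and none. Under amitriptyline the medians were -0.29 and -0.27, under citalopram -0.26 and -0.18, under duloxetine -0.25 and -0.15 and under imipramine -0.21 and -0.13. Cdt1 and Orc1 hold a motif and lay near 0 under mirtazapine (-0.03 each), while Rrm1 and Rrm2 hold none of the 4 motifs and differed by -0.82 and -0.64.

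The rest of the replication machinery was summarised from lists of other genes. The counts under mirtazapine stand beside 55.1% of all genes below 0 and 1.74% called (1.47% lower), so the share of called genes in the longest of these lists is near that of all genes. An unadjusted p under 0.05 was found there for 22.4% of all genes. Of 35 other replication genes tested, 33 were below 0 under mirtazapine, with a median of -0.27, and 1 was called, Rnaseh2b, a subunit of the enzyme that removes ribonucleotides from DNA, which fell by 0.91. Of 21 other genes of the E2F and Rb pathway, 20 were below 0 (median -0.29) and 2 fell, E2f8, a repressive E2F factor (-0.79), and Ccna2, cyclin A2 (-0.88). Of 12 other genes of S phase chromatin, 11 were below 0 (median -0.43, and -0.24 without the 2 arrays that stood apart) and Uhrf1, which helps copy DNA methylation, fell by 0.53. No gene was called among 8 other nucleotide supply genes (median -0.28, and -0.16 without those arrays, 4 with an unadjusted p under 0.05) or 11 S phase repair genes (median -0.32, 6 with an unadjusted p under 0.05). In the other 4 comparisons of a drug with control, no gene of these 5 lists was called, and their medians lay between -0.24 and -0.01. Under duloxetine the 5 medians were -0.18 to -0.07, and -0.02 to 0.05 without those arrays. Without the 2 arrays that stood apart, the genes called under mirtazapine were Rnaseh2b and Tipin, E2f8 and Ccna2, and Uhrf1 and Asf1b, all lower (2.12% of all genes called). In that fit 6 genes of these lists were called lower under amitriptyline (Ticrr, Tipin, Wdhd1, Ccna2, E2f8 and Uhrf1), against 1.31% of all genes called. Under imipramine 1 was (Ccna2), against 0.481%.

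Mitosis genes act after S phase. Of 26 tested, 13 fell under mirtazapine and none rose, with a median of -0.67, where 1.47% of all genes were called lower. The 13 include Top2a, which untangles DNA (-1.08), Nusap1, a spindle protein (-1.0), Cdk1, the mitotic kinase (-0.98), and Ccnb2, cyclin B2 (-0.55). Under the other drugs none of the 26 was called, and the medians were -0.57 (amitriptyline), -0.46 (citalopram), -0.20 (duloxetine) and -0.51 (imipramine). In the fit without the 2 arrays that stood apart, 10 of the 26 were called lower under mirtazapine (median -0.57), against 2.12% of all genes called. There 17 were called lower under amitriptyline (1.31% of all genes) and 6 under imipramine (0.481%). None was called under citalopram or duloxetine (0% of all genes), and the duloxetine median was -0.02.

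Of the markers of other cell types of the brain, some of astrocytes, progenitors, the oligodendrocyte lineage and fibroblasts passed the test under mirtazapine. In that comparison 55.1% of all genes were below 0, 1.74% were called (1.47% lower) and 22.4% had an unadjusted p under 0.05. Summed over 13 astrocyte markers, the unlogged level was 8750 and 9591 on the amitriptyline arrays, 10049 and 9906 on the citalopram arrays, 11538 and 11041 on the duloxetine arrays, 9113 and 9444 on the imipramine arrays and 9314 and 8955 on the mirtazapine arrays, against 10853 and 11651 on the control arrays. The duloxetine sums lay within the control range and the others below it. Of the 13, 12 were below 0 under mirtazapine (median -0.39) and 3 fell: Gfap, the astrocyte intermediate filament (-0.60), Aqp4, a water channel (-1.17), and Glul, glutamine synthetase (-0.53). Of 13 markers of radial glia and progenitors, 12 were below 0 under mirtazapine and 1 fell, Hes5, a Notch target of progenitor cells (-1.14). The 1 above 0 differed by 0.27. Of 10 markers of the oligodendrocyte lineage, 9 were below 0 under mirtazapine and 1 fell, Olig1, a transcription factor of the lineage (-0.83). The 1 above 0 differed by 0.47 and had an unadjusted p under 0.05. Without the 2 arrays that stood apart, the genes of these 3 lists called lower under mirtazapine were Gfap, Aqp4, Glul, Hes5, Pax6, a progenitor transcription factor, and Sox10, an oligodendrocyte lineage transcription factor, while Olig1 was not called. In the same fit Gfap, Aqp4, Hes5, Olig1 and Sox10 were called lower under amitriptyline, and Gfap, Aqp4 and Hes5 under imipramine. Over all genes it called 2.12% under mirtazapine, 1.31% under amitriptyline and 0.481% under imipramine.

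Summed over all genes tested, the unlogged level was lowest on duloxetine replicate 2 (8931921) and mirtazapine replicate 2 (8654072). It ran between 9233819 and 9585181 on the other drug arrays, against 9438869 and 9662576 on the control arrays. The summed level of the progenitor markers ran between 15828 and 17137 on the arrays of amitriptyline, citalopram, imipramine and mirtazapine. It was 18882 and 16423 on the duloxetine arrays, and 18788 and 18822 on the control arrays. For the oligodendrocyte lineage the sums were 2822 to 3422 on the arrays of those 4 drugs and 5438 and 5371 on the duloxetine arrays, against 3795 and 5377 on the control arrays, which themselves were far apart. Of the 9 fibroblast and pericyte markers, 5 were below 0 and 4 above it under mirtazapine (median -0.02, highest 0.50). Dcn, the matrix proteoglycan decorin, was the 1 called and fell by 1.61, while 3 of those above 0 had an unadjusted p under 0.05. Of all genes, 22.4% had an unadjusted p under 0.05 in that comparison, in either direction. Without the 2 arrays Dcn was called under mirtazapine too, and Dcn and Pdgfrb, a pericyte receptor, were called lower under amitriptyline. Of 14 neuron markers none was called under any drug. An unadjusted p under 0.05 was found for 3 of them, under mirtazapine, a share near the 22.4% of all genes. Their sums were 42203 to 47246 on the drug arrays, against 44591 and 47582 on the control arrays. No microglial or endothelial marker was called (9 and 8 tested, each list with 2 unadjusted p-values under 0.05 over the 5 drugs). The first 4 genes of each of these marker lists were above the filter on the mean of the arrays. The part of these cell types in the differences of the replication genes was not tested.

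**Figure D5:**
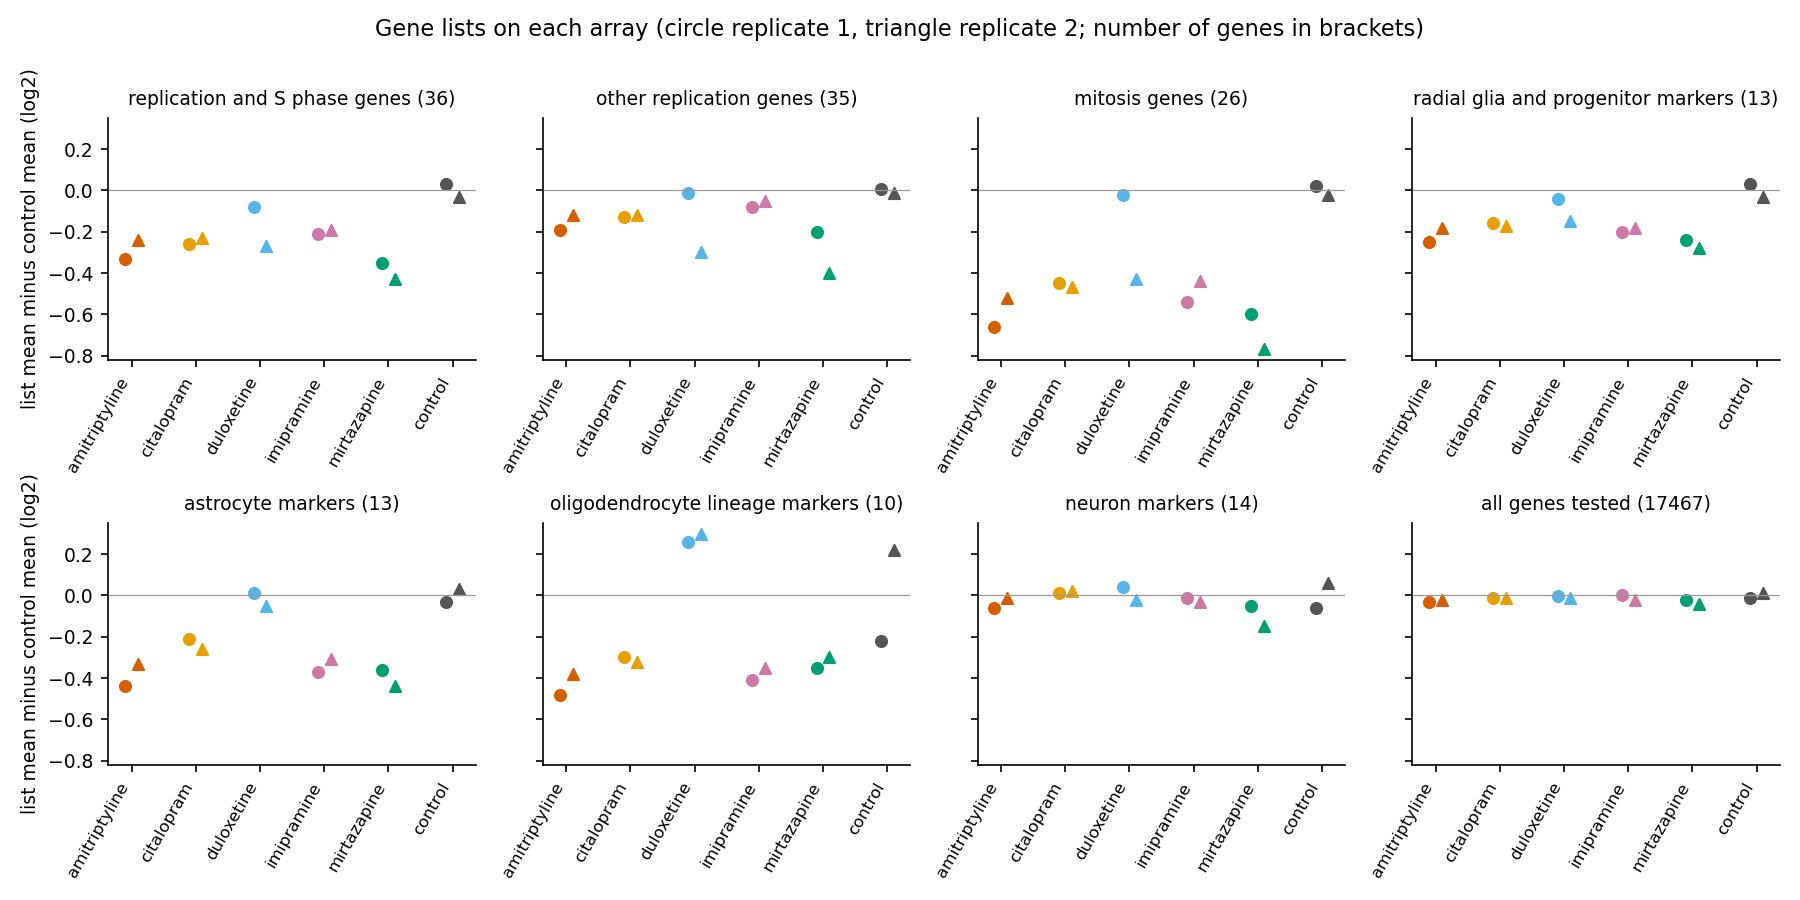
Mean of each gene list on each array, minus its control mean (vertical axis, log2 units), by group with the drugs to the left of control; circles are replicate 1 and triangles replicate 2. All lists but the neuron markers and all genes tested are below 0 on the amitriptyline, citalopram, imipramine and mirtazapine arrays. On the duloxetine arrays the replication genes (-0.08 and -0.27), other replication genes, mitosis genes (-0.02 and -0.43) and progenitor markers are below 0 too. The astrocyte markers lie at 0.01 and -0.05 there, and the oligodendrocyte lineage markers at 0.26 and 0.3. The neuron markers stay between -0.15 and 0.06.

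Within the list, the genes differed in how far they followed the rest. Across the 12 arrays, which share the 6 groups and 1 normalization, the median correlation between pairs of the 36 genes was 0.476 over 630 pairs, and 0.614 without the 2 arrays that stood apart. Pole (r = 0.954) and Mcm5 (r = 0.951) were the most alike to the mean of the other 35 genes. Rpa2 (0.941), Dtl (0.934) and Rrm1 (0.931) followed. Gmnn (-0.415), Tyms (-0.179), Fen1 (-0.175), Orc1 (-0.167) and Cdt1 (-0.021) were below 0. Without the 2 arrays that stood apart, r was 0.192 for Tyms and 0.223 for Orc1, and it stayed below 0 for Gmnn, Fen1 and Cdt1. For Pclaf r was 0.408, and 0.775 without the 2 arrays. For Tk1 it was 0.002, and 0.696 without them.

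Outside the list, the 10 genes most alike to the mean of the 36 over the 12 arrays had r between 0.958 and 0.977. They were Tpi1, a glycolytic enzyme (0.977), H1f5, a linker histone (0.975), Ccdc80, Egln3, an oxygen-sensing prolyl hydroxylase, Wipi1, an autophagy protein, Ezr, which links membrane and actin, Rin2, Mad2l2, a subunit of translesion polymerase zeta, Cenpn, a centromere protein, and Parva, an adhesion protein. H1f5 had differences of -1.23, -0.92, -0.87, -0.85 and -1.50 in the order of the drugs, and Cenpn of -0.59, -0.55, -0.51, -0.43 and -0.93. These are descriptions of likeness over 12 arrays and carry no test.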

How the data were processed

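The authors deposited log2 values of 41345 probe sets on 12 arrays, written with 2 decimals. Per the submitters' processing notes these come from RMA in Affymetrix Expression Console, which corrects background, equalises the distributions of the arrays and summarises probes. Versions and a genome build were not given in the sources used here. RMA draws values toward a common distribution, so differences are relative to the other genes of an array. Genes were named from the platform annotation, which gave 1 symbol to 23521 probe sets, several to 1814 and none to 16010.

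The genes and lists described were chosen with earlier results of these data known, so no p-value is given for a list. All genes over the filter were fitted in 1 linear model over the 6 groups (limma 3.58.1 in R 4.3.3, lmFit and eBayes without trend, 6 residual and 3.86 prior degrees of freedom). P-values are two-sided, adjusted by Benjamini-Hochberg over 17467 genes and called under 0.05. The fit was run on simulated data with known differences. These had 1 spread per gene on all arrays and no array that stood apart, so that run checks the code and not the calls made here. Values on each array are given, within each role, for genes called in any comparison and for the gene of lowest p for the mean of the 5 drugs. Of the other lists, called genes and the first 4 genes of each cell type are named, and Tipin, Asf1b, Ticrr, Wdhd1, Sox10 and Pdgfrb after their values were seen. Replicate numbers were not taken to pair the arrays. Over 15 pairs of groups, the correlation of same-numbered deviations ran from -0.438 to 0.712, with a median of -0.085, and 4 pairs were over 0.1. Both arrays that stood apart are a replicate 2. Alternatives were no filter or a filter at the 50th percentile, the mean of a gene's probe sets, array weights, eBayes with a trend and robust prior, a replicate block, quantile normalization applied again, only the arrays compared, each array left out in turn, and both arrays that stood apart left out. In fits that leave out 1 array of a group, the remaining one is assumed to vary as the other groups do. Promoter windows are from RefSeq (GRCm38.p6). Matplotlib 3.10.9 under Python 3.11.15 drew the figures.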

Additional observations from a re-analysis of the deposited data

Results flagged for a closer look

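Pclaf was singled out because its level differed between drugs: the mean of amitriptyline, citalopram, imipramine and mirtazapine cultures was -0.58 log2 units relative to duloxetine cultures (limma, adjusted p = 0.0212). All 8 arrays of those 4 drugs were below both duloxetine arrays and both control arrays. The doses differ between the drugs. The difference was -0.50 with an adjusted p of 0.0721 without duloxetine replicate 2 and mirtazapine replicate 2. Pclaf was also not called with array weights, nor in some of the fits that left out 1 array, as given above. With 2 arrays a group, such a fit leaves a single array in that group, so it cannot show which of the 2 is outlying.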

How the results depend on the processing

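The median differences of the replication genes kept their direction under every alternative run; the median for duloxetine, -0.19, was -0.08 without both arrays that stood apart, and -0.29 to -0.08 with single arrays left out. The counts of calls among the 36 genes were less stable, and where no construction of the alternative shows it, the cause was not tested. The share of all genes called, given here in brackets, moved too. With array weights, which came out equal for both arrays of a group, the count was 6 for amitriptyline (1.27%), 2 for citalopram (0.435%) and 2 for imipramine (0.733%). For mirtazapine it was 4 (0.63%), and Dtl and Rfc5 were not among them. In that fit it was 5 for the mean of the 5 drugs (1.04%), 0 for the other 4 drugs against duloxetine (0.0115%) and 1 for the F test (0.12%). Without both arrays that stood apart it was 7 for amitriptyline (1.31%) and 1 for imipramine (0.481%). There it was 6 for the mean of the 5 drugs (1.18%) and 0 for the other 4 drugs against duloxetine (0.573%). With only the 4 arrays compared it was 0 for mirtazapine (0.0802%), in a fit with fewer samples. With a filter at the 50th percentile it was 2 for the mean of the 5 drugs (0.461%) and 1 for the F test (0.557%). With trend and robust these were 1 (0.286%) and 1 (0.504%). After a second quantile normalization they were 1 (0.143%) and 2 (0.453%), with 2 for the other 4 drugs against duloxetine (1.08%).

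With single arrays left out, the counts (and in brackets the share of all genes called) ran from 0 to 1 for amitriptyline (0% to 0.275%), 0 to 1 for imipramine (0% to 0.166%), 0 to 9 for duloxetine (0% to 11.7%), 0 to 17 for mirtazapine (0% to 8.3%), 0 to 10 for the mean of the 5 drugs (0% to 1.39%), 0 to 2 for the other 4 drugs against duloxetine (0.177% to 9.18%) and 0 to 7 for the F test (0% to 2%). With a replicate block, the replicate numbers being no known pairing, 4 genes were called under mirtazapine in place of 6 (1.34% of all genes). Dtl and Pole2 were not called there, and no other count among the 36 changed. Dtl and Pole2 were also not called without the filter (0.861%), and Pole and Pole2 were not with the mean of all probe sets (1.58%). After a second quantile normalization 5 genes were called under mirtazapine (1.99%), without Dtl and Pole2 but with Rrm1. With a filter at the 50th percentile 8 were called (3.27%), and Gins1 was not among them. With trend and robust 9 were called (2.52%), among them all 6.

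Over all genes, leaving out the leave-one-array fits, the counts ranged from 0 to 228 for amitriptyline (0 as reported), 0 to 76 for citalopram (0), 0 to 128 for imipramine (5), 14 to 441 for mirtazapine (304), 0 to 206 for the mean of the 5 drugs (9), 2 to 194 for the other 4 drugs against duloxetine (115) and 2 to 88 for the F test (18). With 2 arrays a group, the 95% interval of the median replication gene extended 0.29 log2 units each way, which limits what can be told from 0.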
